A study of Saccharomyces cerevisiae with 15 samples.

Results

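The regulators described here are 9 genes of budding yeast, Saccharomyces cerevisiae, through which nutrient supply sets either growth or stress resistance: MSN2, MSN4, GIS1, RIM15, SCH9, SFP1, IFH1, FHL1 and RAP1. They were picked by gene name, as known regulators, at a time when earlier results of these data were known, and are 9 of the 5980 genes in the expression table. All 9 passed the filter on low counts, which 5814 genes passed. They fall into 3 transcription factors of the stress response, 2 protein kinases that read nutrient signals and 4 factors that act on ribosomal protein genes.

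In rich medium the kinase complex TORC1 and protein kinase A are active, Sch9 and Sfp1 promote ribosome production, and Msn2, Msn4 and Rim15 are held in the cytoplasm. When glucose runs low these signals fade, Rim15 becomes active, Msn2 and Msn4 enter the nucleus and bind the stress response element, and Gis1 acts at the related post-diauxic shift element. At ribosomal protein genes, Rap1 binds the promoter and Fhl1 sits beside it, with Ifh1 as the coactivator that binds Fhl1 and Crf1 as a corepressor that can take its place. Much of this control acts on protein activity and location, which transcript levels do not measure.

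RNA sequencing was done on 15 libraries, 3 from each of 5 strains in the S288C background. All 5 share the genotype his3Δ1, leu2Δ0, met15Δ0, ura3Δ0, and all overexpress the genome-editing nuclease spCas9-NG. BY47419, the original strain, overexpresses nothing else. C0, labelled as the original β-carotene strain, and the evolved strains C3-06 and C5-63 (intermediate) and C7-143 (final) also overexpress CrtE, CrtYB and CrtI, which make carotenoids, and HMG1, the HMG-CoA reductase. Cultures were grown in YPD with 20 g/L glucose at 30 °C to an OD600 of about 3, and RNA came from 50 mL of culture. How the evolved strains were obtained and whether each is a single clone are not given in the labels. Nor do they say whether a strain's 3 libraries are separate cultures, so p-values measure the spread between these libraries, which may be technical. In bulk RNA, fewer cells that express a gene and less of its RNA per cell cannot be told apart.

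The libraries held 16144808 to 21586409 reads assigned to genes. HMG1 had 102139 reads in C0, 65158 in C3-06, 37235 in C5-63 and 36051 in C7-143, each labelled as overexpressing it. Over the 3 BY47419 libraries it had 3686 reads. LEU2, labelled as deleted in every strain, had 0 reads in C3-06 and 8491 to 17634 reads in each other strain. This difference runs along every comparison with C3-06. HIS3, labelled as his3Δ1 in every strain, had 1608 reads in BY47419, 1756 in C0 and 6177 to 8807 in each evolved strain. The differences in HMG1 and HIS3 run along every comparison of an evolved strain with C0. GAL80, a repressor of galactose genes that the labels do not mention, had 0 reads in C0 and in each evolved strain, against 7328 reads in BY47419, a difference that runs along every comparison of C0 with BY47419. Replicate 2 of BY47419 and replicate 1 of C3-06 stood apart from the other libraries of their strains. Markers of mating type a cells (6 of 6 detected) held 0.0346% to 0.153% of the reads of a library and markers of alpha cells (4 of 4 detected) 0.00609% to 0.0131%. Genes of the post-diauxic and stationary phases (10 of 10 detected) held 0.217% to 0.267% of the reads in C7-143, 0.496% to 0.648% in C5-63, 0.852% to 1.12% in C3-06 and 2.15% to 2.32% in C0, against 2.81% to 3.38% in BY47419. Strains labelled as exponential thus differed in these markers, and the part of culture state in the differences below was not tested.

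Levels of the same gene across strains are given as CPM, read counts relative to the library's total after TMM scaling, which sets library sizes so that most genes are assumed unchanged. Fold changes come from edgeR's quasi-likelihood test, with a standard error (SE) in log2 units and p-values adjusted by the Benjamini-Hochberg method over all genes tested, and a gene was called at an adjusted p below 0.05. Against C0, 80.5% of all genes were called in C3-06, 83.1% in C5-63 and 86% in C7-143, so that a called member is what most genes were. At these rates the TMM assumption of mostly unchanged genes is in doubt, and small fold changes depend on it. Against these rates, 7 of the 9 regulators were called in each of the 3 evolved strains. In C3-06, 2 rose and 5 fell, where 41.1% of all genes rose and 39.4% fell. In C5-63, 3 rose and 4 fell, where 41.4% rose and 41.8% fell, and in C7-143, 3 rose and 4 fell, where 42.7% rose and 43.3% fell. In C0 over BY47419, 5 of the 9 regulators and 30.3% of all genes were called; 1 regulator rose and 4 fell, where 12.2% of genes rose and 18% fell. The libraries of the strains compared did not overlap for 5 of the 9 regulators in C0 over BY47419 (40.8% of all genes), and over C0 for 6 in C3-06 (81.4%), 6 in C5-63 (85.2%) and 7 in C7-143 (87.3%). Without C3-06 replicate 1, MSN2 was no longer called in C3-06 over C0, and the other regulator calls there held. Without BY47419 replicate 2, the same regulators were called in C0 over BY47419. The median log2 fold change over the 9 regulators was -0.01 in C7-143 over C0, against -0.02 over all genes tested. The median thus hides opposite changes of single regulators.

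**Figure D1:**
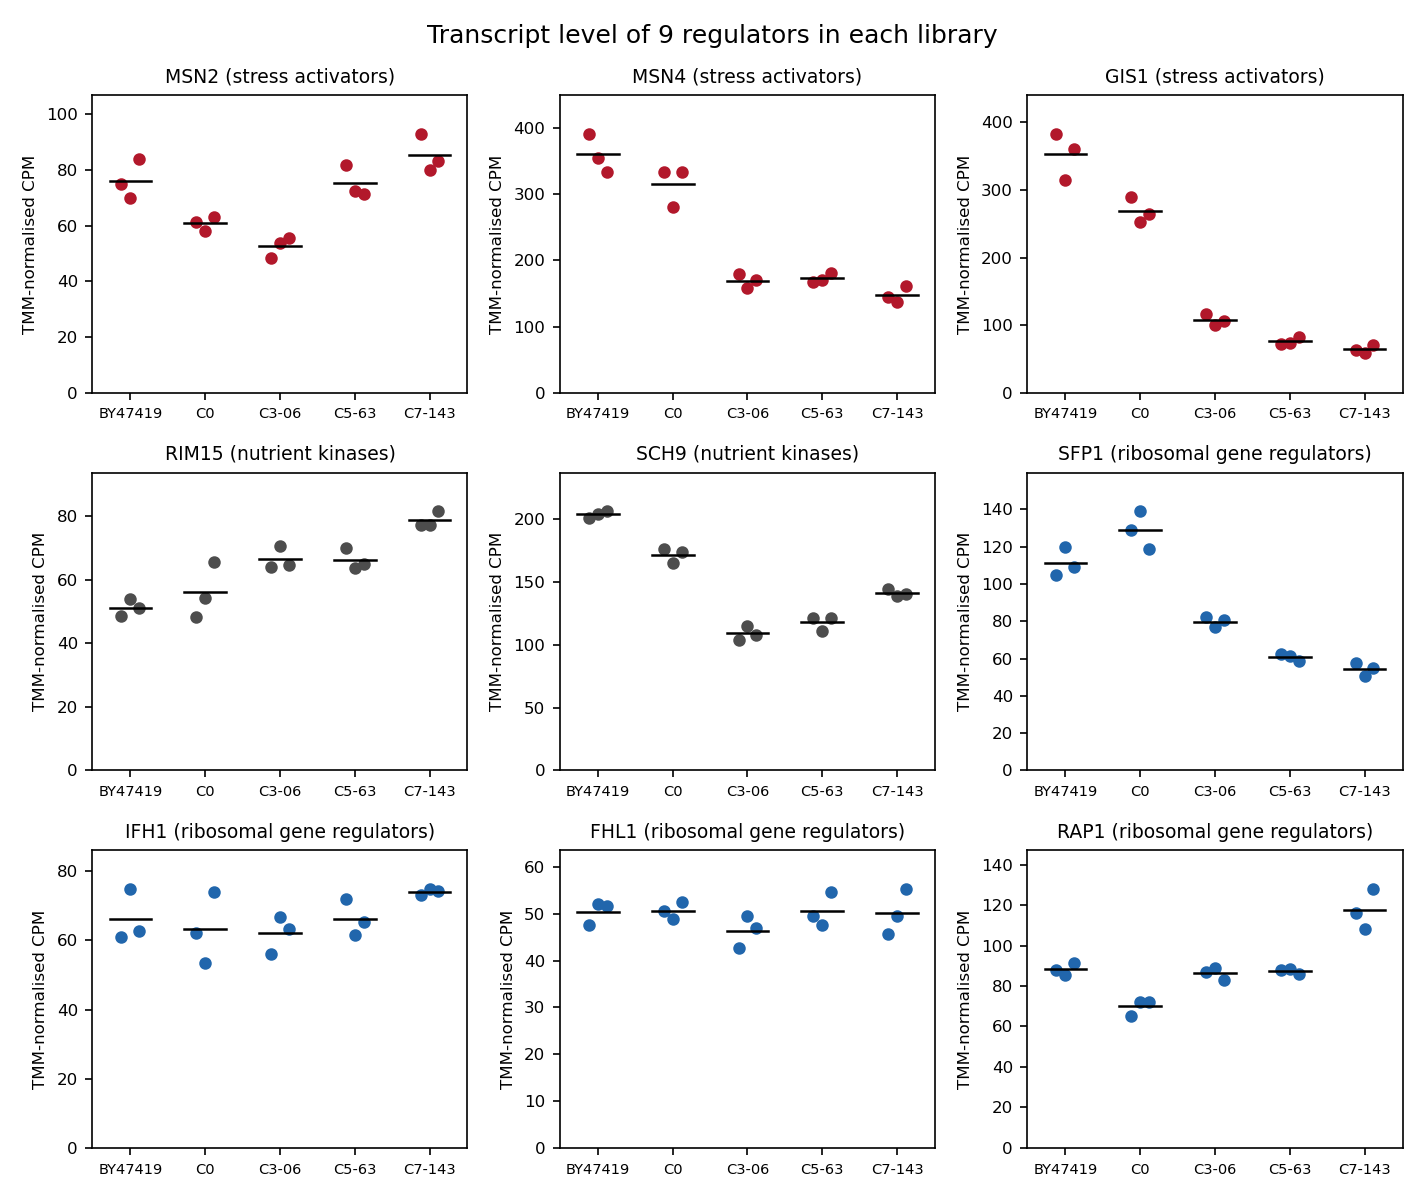
CPM (linear axes from 0) of the 9 regulators in each of the 15 libraries, by strain; points are libraries, lines the strain means, and colours the roles (red stress factors, grey kinases, blue ribosomal gene regulators). GIS1 lies at 59.5 to 71.1 CPM in C7-143, below its 253 to 289 CPM in C0, while FHL1 stays between 42.6 and 55.3 CPM in all 15 libraries.

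GIS1 (YDR096W, R64 chromosome IV, 637139 to 639823, plus strand), the zinc-finger factor of post-diauxic genes, varied most among the 9. Its level was 383, 315 and 360 CPM in the BY47419 libraries, 289, 253 and 264 CPM in C0, and 117, 101 and 107 CPM in C3-06. In C5-63 it was 71.7, 74.4 and 83.3 CPM, and in C7-143 it was 62.8, 59.5 and 71.1 CPM. Every library of a later strain was lower than every library of the strain before it. GIS1 fell by 2.06 on the log2 scale in C7-143 relative to C0 (SE 0.09, adjusted p = 4.77e-12 in edgeR with Benjamini-Hochberg adjustment), a 4.17-fold lower level in C7-143. It also fell in C3-06 and C5-63 relative to C0, with log2 fold changes of -1.31 ± 0.09 and -1.81 ± 0.09 (SE), and in C0 relative to BY47419 (-0.39 ± 0.09). The strain means of GIS1 spanned 2.45 log2 units, more than in 86.1% of all genes, whose median span was 1.10.

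MSN4 (YKL062W, chromosome XI, 323228 to 325120, plus strand) and MSN2 (YMR037C, chromosome XIII, 344403 to 346517, minus strand), the paired zinc-finger activators of the general stress response, went apart in the later strains. MSN4 had 145, 137 and 161 CPM in C7-143, against 333, 280 and 333 CPM in C0, and the libraries did not overlap. MSN2 had 93.0, 80.0 and 83.4 CPM in C7-143, against 61.4, 58.1 and 63.1 CPM in C0, again without overlap. MSN4 thus fell, with a log2 fold change of -1.09 ± 0.09 (SE, adjusted p = 3.62e-09 in edgeR with Benjamini-Hochberg adjustment), and MSN2 rose, with 0.49 ± 0.08 (adjusted p = 4.3e-05).

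The order of strains differed between both genes. MSN4 was already low in C3-06, at 170 ± 10.1 CPM (SD, n = 3), and C5-63 had 173 ± 7.38 CPM, a difference that was not called (log2 fold change 0.03 ± 0.09 SE). MSN2 was lowest in C3-06, at 48.6, 53.7 and 55.7 CPM, and C5-63 had 81.7, 72.5 and 71.4 CPM. That rise of MSN2 in C5-63 over C3-06, 0.51 ± 0.08 (SE), had an adjusted p of 0.000254 in edgeR with Benjamini-Hochberg adjustment and exceeded the log2 fold change of 95.4% of all genes. MSN2 was also lower in C0 than in BY47419 (-0.32 ± 0.08), whereas MSN4 at -0.19 ± 0.08 missed the threshold although its libraries did not overlap. The call of MSN2 there was lost without BY47419 replicate 3 (-0.25). The drop of MSN2 in C3-06 relative to C0, -0.21 ± 0.08 (SE), was not called without C3-06 replicate 1 (-0.15), without C0 replicate 1 (-0.20) or without C0 replicate 3 (-0.18).

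MSN2 with MSN4, GIS1 with RPH1 and IFH1 with CRF1 are pairs left from the genome duplication of yeast, and a share within a pair does not depend on how libraries are scaled. MSN4 held 60.9%, 63.2% and 65.9% of the summed MSN2 and MSN4 counts in C7-143, against 84.4%, 82.8% and 84.1% in C0. Its mean share was 82.5% in BY47419, 83.8% in C0, 76.3% in C3-06, 69.7% in C5-63 and 63.3% in C7-143. MSN4 thus stayed the more abundant partner in all 15 libraries, by a margin that was smaller in each evolved strain than in the one before. In each of the 5 comparisons other than C0 with BY47419 the shares did not overlap, and the exact permutation test (two-sided) gave p = 0.1, the smallest that 3 against 3 libraries allow, or 0.138 after Benjamini-Hochberg adjustment over 18 tests.

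RPH1 (YER169W, chromosome V, 523369 to 525759), the paralog of GIS1 and a histone demethylase that acts as a repressor, fell as well, to 132, 114 and 127 CPM in C7-143, against 308, 292 and 276 CPM in C0. Its log2 fold change there, -1.23 ± 0.08 (SE), was smaller in size than that of GIS1. RPH1 held 44.9% of the summed counts of the pair in BY47419, 52.1% in C0, 64.3% in C3-06, 66.4% in C5-63 and 65.9% in C7-143. In counts, GIS1 was thus the larger part of the pair in BY47419 and RPH1 in the other 4 strains. The share did not overlap between C0 and BY47419 or between any evolved strain and C0 (exact permutation test, two-sided, p = 0.1 each). Per coding length, which is shorter in RPH1, its share was 45.1%, 52% and 46.3% in the BY47419 libraries. By that measure RPH1 was the larger part in replicate 2 of BY47419.

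**Figure D2:**
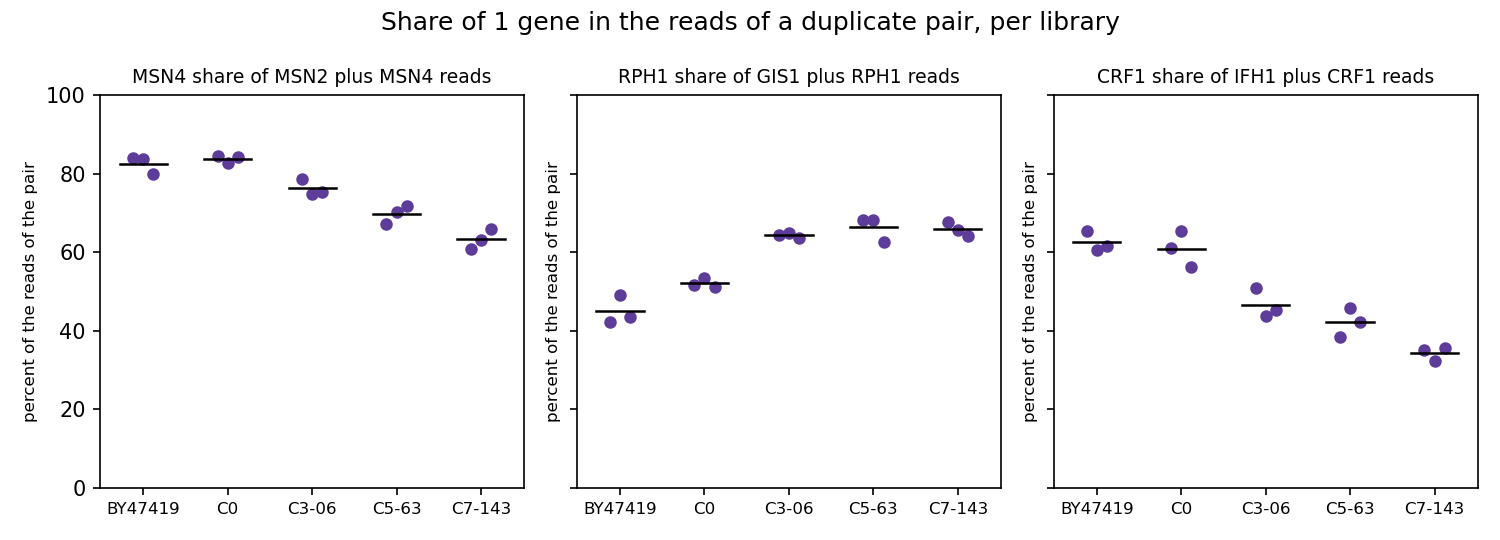
Share of counts (percent) held by 1 partner of each paralog pair in the 15 libraries, by strain; points are libraries and lines the strain means. The MSN4 share has a mean of 63.3% in C7-143 and 83.8% in C0, the RPH1 share 65.9% and 52.1%, and the CRF1 share 34.3% and 60.9%.

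Sequence before the start codons was searched for the elements these factors bind, as letters on both strands over 500 bases in R64. The stress response element, searched as AGGGG and, for the other strand, as CCCCT, was present before 34.1% of 5970 genes and before 3 of the 9 regulators, GIS1, SCH9 and RAP1. The sites are shown because Gis1 and the kinase Sch9 lie in the same circuit as the factors that bind such elements. Each is written 5′ to 3′ on the gene's strand with the element in capitals:
GIS1, chrIV:636803-636827: gaaaacctccCCCCTcctcctcccg
SCH9, chrVIII:509184-509208: tcctaatttgCCCCTcttcgctttt
RAP1, chrXIV:241258-241282: gatattaagaAGGGGcaatatgact

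Of these 3 genes with an element, GIS1 and SCH9 fell and RAP1 rose in C7-143 relative to C0, and of the 6 without one, MSN4 and SFP1 fell, MSN2 and RIM15 rose, and IFH1 and FHL1 were not called. The paralogs RPH1 and CRF1 held 2 elements and 1. A match of letters is a description and shows no binding.

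RIM15 (YFL033C, chromosome VI, 69115 to 74427, minus strand) is the kinase of entry into the stationary phase. SCH9 (YHR205W, chromosome VIII, 509363 to 511837, plus strand) is a direct target of TORC1 that restrains Rim15. Both moved in opposite directions in C7-143 relative to C0, but both rose in C7-143 relative to C5-63. RIM15 had 77.4, 77.2 and 81.6 CPM in C7-143, against 48.4, 54.4 and 65.5 CPM in C0. SCH9 had 144, 139 and 140 CPM in C7-143, against 176, 165 and 174 CPM in C0. Neither gene's libraries overlapped between these strains. RIM15 rose by a log2 fold change of 0.49 ± 0.09 (SE, adjusted p = 9.34e-05 in edgeR with Benjamini-Hochberg adjustment), and SCH9 fell, with -0.28 ± 0.06 (adjusted p = 0.000272).

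SCH9 was lowest not in the final strain but in C3-06, at 104, 115 and 108 CPM, followed by C5-63 at 121, 111 and 121 CPM. Against C0 its log2 fold changes were -0.65 ± 0.06 (SE) in C3-06 and -0.54 ± 0.06 in C5-63. It rose again in C7-143 relative to C5-63, by 0.26 ± 0.06 (SE, adjusted p = 0.00162 in edgeR with Benjamini-Hochberg adjustment). In C0 it was lower than in BY47419 (-0.25 ± 0.06), with 176, 165 and 174 CPM in C0, against 201, 204 and 206 CPM in BY47419.

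RIM15 differed less clearly in the intermediate strains. Its log2 fold change over C0 was 0.24 ± 0.09 (SE) in C3-06 and 0.24 ± 0.09 in C5-63, and in both the libraries overlapped with those of C0. These calls were lost without C0 replicate 1 (0.15 in each) and without C0 replicate 2 (0.22 in each), and also without C3-06 replicate 2 (0.20) and without C5-63 replicate 1 (0.20). RIM15 also had the lowest level per coding length of the 9 regulators in every strain.

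**Figure D3:**
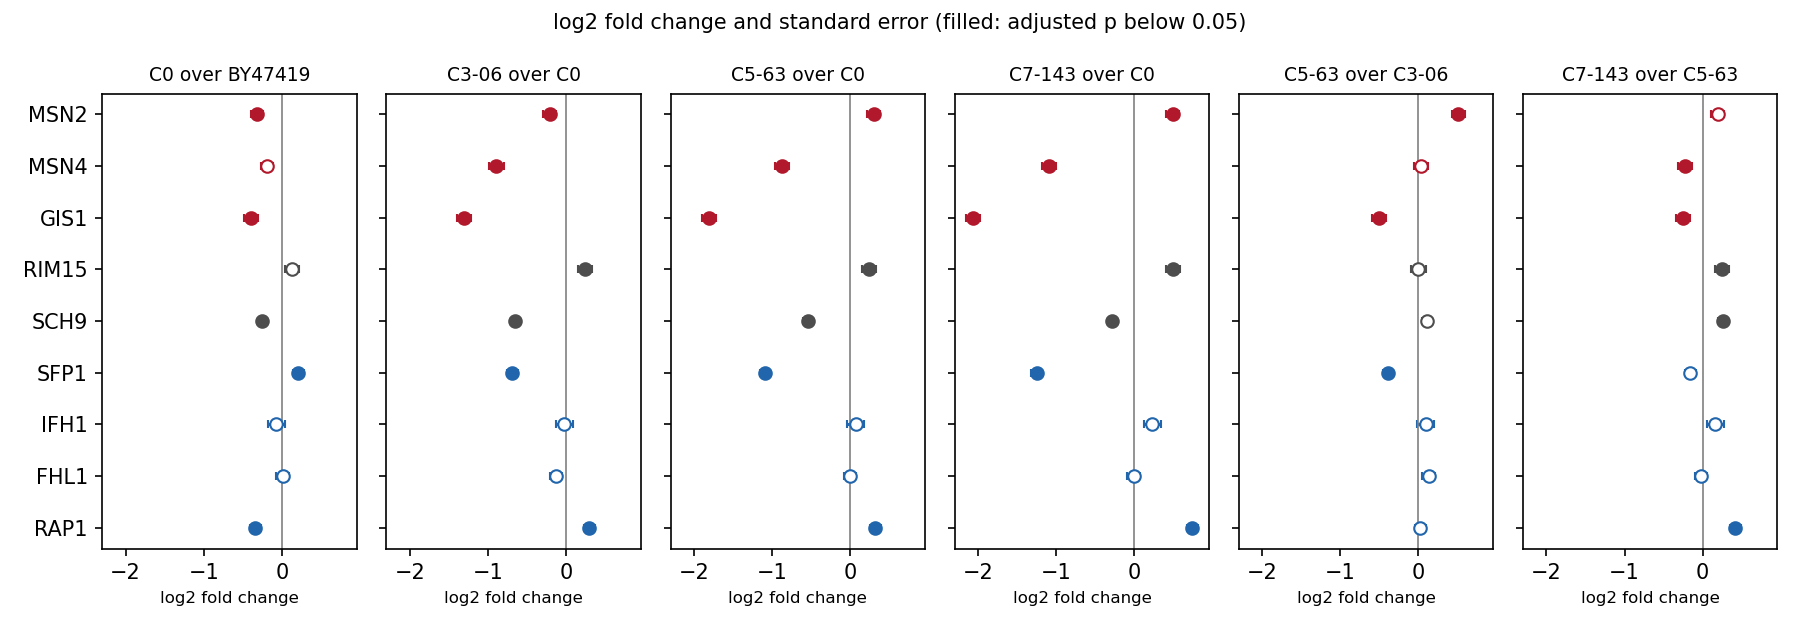
Log2 fold change of each regulator in the 6 comparisons, with bars of 1 SE; filled points were called at an adjusted p below 0.05 in edgeR, and colours mark the roles (red stress factors, grey kinases, blue ribosomal gene regulators). GIS1 reaches -2.06 and RAP1 0.74 in C7-143 over C0, and FHL1 is not called in any of the 6.

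SFP1 (YLR403W, chromosome XII, 925568 to 927619, plus strand), an activator of ribosomal protein and ribosome biogenesis genes, fell in every evolved strain. It had 105, 120 and 109 CPM in BY47419, 129, 139 and 119 CPM in C0 and 82.2, 76.8 and 80.5 CPM in C3-06. In C5-63 it had 62.5, 61.6 and 58.7 CPM, and in C7-143 it had 57.5, 50.9 and 54.9 CPM. From C0 on, the libraries of each strain lay below all libraries of the strain before. The log2 fold changes over C0 were -0.69 ± 0.07 (SE) in C3-06, -1.09 ± 0.07 in C5-63 and -1.25 ± 0.07 in C7-143, the last with an adjusted p of 8.36e-11 in edgeR with Benjamini-Hochberg adjustment. The last step, C7-143 over C5-63, was not called (-0.16 ± 0.07). SFP1 was the 1 regulator called higher in C0 than in BY47419 (0.21 ± 0.07), where the libraries overlapped, and the call was lost without BY47419 replicate 1 (0.17) or 3 (0.20), without C0 replicate 1 (0.21) or 2 (0.16), and when only these strains were fitted (0.25).

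RAP1 (YNL216W, chromosome XIV, 241689 to 244172, plus strand), which binds ribosomal protein promoters, glycolytic promoters and telomeres, rose. It had 116, 108 and 128 CPM in C7-143, against 65.3, 72.2 and 72.3 CPM in C0, a log2 fold change of 0.74 ± 0.07 (SE, adjusted p = 2.06e-08 in edgeR with Benjamini-Hochberg adjustment). C3-06 and C5-63 lay between, with means of 86.3 ± 3.11 and 87.4 ± 1.51 CPM (SD, n = 3 each), and did not differ from each other beyond their spread. C7-143 was also above C5-63, by 0.42 ± 0.07 (SE, adjusted p = 0.000102 in edgeR with Benjamini-Hochberg adjustment). C0 was lower than BY47419 (-0.34 ± 0.07), with 65.3, 72.2 and 72.3 CPM in C0, against 88.0, 85.6 and 91.2 CPM in BY47419. The levels of C3-06 and C5-63 therefore overlapped with that of BY47419.

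IFH1 (YLR223C, chromosome XII, 582233 to 585490, minus strand) and FHL1 (YPR104C, chromosome XVI, 733623 to 736433, minus strand) were not called in any of the 6 comparisons. FHL1 had 45.6, 49.4 and 55.3 CPM in C7-143, against 50.5, 48.8 and 52.5 CPM in C0. Its log2 fold change was -0.01, with a 95% interval of -0.19 to 0.16, which leaves room for changes of that size. IFH1 had 73.0, 74.8 and 74.2 CPM in C7-143, against 62.0, 53.6 and 74.0 CPM in C0. Its log2 fold change was 0.23 with an interval of -0.00 to 0.46 (adjusted p = 0.0601 in edgeR with Benjamini-Hochberg adjustment), and it was called without C0 replicate 3 (0.36). The strain means of FHL1 spanned 0.13 log2 units and those of IFH1 0.25, less than in all but 0.258% and 2.8% of genes.

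CRF1 (YDR223W, chromosome IV, 912099 to 913502), the paralog of IFH1 and the corepressor with Fhl1, fell while IFH1 was not called. It had 39.5, 35.6 and 40.9 CPM in C7-143, against 97.5, 101 and 94.9 CPM in C0, a log2 fold change of -1.34 ± 0.08 (SE, adjusted p = 9.44e-11 in edgeR with Benjamini-Hochberg adjustment). CRF1 held 62.5% of the summed IFH1 and CRF1 counts in BY47419, 60.9% in C0, 46.7% in C3-06, 42.2% in C5-63 and 34.3% in C7-143. In counts, CRF1 was the larger part of the pair in BY47419 and C0, and IFH1 in C5-63 and C7-143. The shares did not overlap between any evolved strain and C0 (exact permutation test, two-sided, p = 0.1 each, 0.138 after Benjamini-Hochberg adjustment over 18 tests). Per coding length, which is shorter in CRF1, its share was still 55.7%, 52.5% and 56.1% in the C7-143 libraries, against 78.5%, 81.4% and 74.9% in C0.

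The evolved strains were also compared with each other. In C5-63 over C3-06, 3 of the 9 were called, against 40.8% of all genes: MSN2 rose, where 19.8% of genes rose, and GIS1 (-0.50 ± 0.09 SE) and SFP1 (-0.39 ± 0.07) fell, where 21% fell. The same 3 were those whose libraries did not overlap (57.1% of all genes). In C7-143 over C5-63, 5 of the 9 were called, against 48.8% of all genes: RAP1, SCH9 and RIM15 (0.25 ± 0.09 SE) rose, where 25% of genes rose, and GIS1 (-0.25 ± 0.09) and MSN4 (-0.23 ± 0.09) fell, where 23.9% fell. These 5 did not overlap between libraries, nor did SFP1 and IFH1, so 7 of the 9 (62% of all genes). The calls of RIM15, GIS1 and MSN4 there were close to the threshold, with adjusted p-values of 0.0302, 0.0373 and 0.0375 in edgeR with Benjamini-Hochberg adjustment. All 3 calls were lost without C5-63 replicate 2, C5-63 replicate 3, C7-143 replicate 1 or C7-143 replicate 2. MSN4 was also not called without C5-63 replicate 1, nor RIM15 without C7-143 replicate 3. RAP1 and SCH9 stayed called whichever library was left out. SFP1 became called without C7-143 replicate 1 (-0.22), and MSN2 without C5-63 replicate 1 (0.25).

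Several small differences depended on scaling. With library totals alone in place of TMM factors, the median log2 fold change of all genes moved to 0.13 in C0 over BY47419, and to 0.22, 0.30 and 0.12 in C3-06, C5-63 and C7-143 over C0. Of all genes, 1279 were then called higher and 318 lower in C0 over BY47419 (712 and 1049 with TMM), 2820 and 1702 in C3-06 over C0 (2387 and 2292), and 3035 and 1684 in C5-63 over C0 (2405 and 2428). The split was 1546 and 761 in C5-63 over C3-06 (1151 and 1221) and 714 and 2314 in C7-143 over C5-63 (1451 and 1387). Relative to totals, 1 of the 9 regulators, SFP1, was then called in C0 over BY47419, since MSN2 (-0.17), GIS1 (-0.24), SCH9 (-0.10) and RAP1 (-0.18) missed the threshold. SCH9 in C7-143 over C0 (-0.14) and MSN2 in C3-06 over C0 (-0.00) were likewise no longer called. IFH1 was called with this scaling in C5-63 over C0 (0.37) and C7-143 over C0 (0.36), and FHL1 in C5-63 over C0 (0.31), beside the shifts of the median gene to 0.30 and 0.12. In C7-143 over C5-63, where the median gene moved to -0.18, RIM15 (0.08) and SCH9 (0.09) were not called and SFP1 (-0.33) was. The calls of GIS1, MSN4, SFP1 and RAP1 in each evolved strain over C0 held with TMM, RLE and library totals.

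Levels of different genes were compared per coding length, as RPKM on the TMM scale. MSN4 was the most abundant of the 9 in all 5 strains, with 190 ± 15.3 RPKM in BY47419, 167 ± 16.1 in C0, 89.7 ± 5.33 in C3-06, 91.4 ± 3.9 in C5-63 and 78.1 ± 6.51 in C7-143 (SD, n = 3 each). RIM15 was the least abundant, with 9.65 ± 0.525 RPKM in BY47419 and 14.8 ± 0.469 in C7-143. Between these ends the order changed. GIS1 held the second place in C0 at 100 ± 6.81 RPKM, ahead of SCH9 at 69.3 ± 2.27 and SFP1 at 63 ± 4.99, of which the last 2 overlapped. In C7-143 the order after MSN4 was SCH9 at 57.1 ± 1.06, RAP1 at 47.2 ± 4.01, MSN2 at 40.4 ± 3.19, SFP1 at 26.5 ± 1.62, GIS1 at 24 ± 2.23, IFH1 at 22.7 ± 0.292 and FHL1 at 17.8 ± 1.74 RPKM. The libraries of RAP1 and MSN2 overlapped there, as did those of SFP1 and GIS1 and those of GIS1 and IFH1. The range of the 9 thus narrowed towards the final strain.

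**Figure D4:**
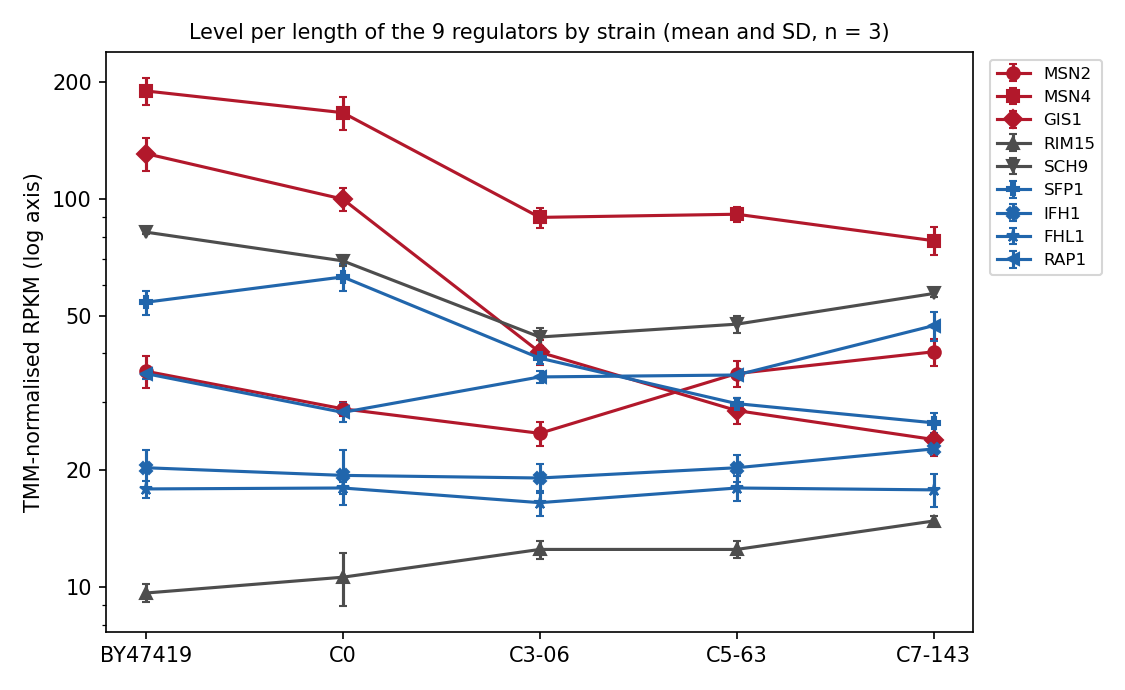
RPKM (log axis) of the 9 regulators by strain; points are strain means, bars the SD of 3 libraries, and colours the roles (red stress factors, grey kinases, blue ribosomal gene regulators). GIS1 falls to 24 RPKM in C7-143, against 100 RPKM in C0, and RAP1 lies at 47.2 RPKM, against 28.2 RPKM in C0.

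Genes upstream of these factors are given by list for C7-143 over C0, where 43.3% of all genes fell, 42.7% rose and the median log2 fold change of all genes was -0.02. Of 14 genes of TORC1 and its inputs (median -0.42), 10 fell, 3 rose (GTR1, MEH1 and NPR3) and 1, PKH1, was not called (-0.08). TOR1, a kinase gene of the complex, fell to 55.9 ± 2.02 CPM in C7-143, against 160 ± 22.4 CPM in C0 (SD, n = 3 each). TOR2, the related kinase gene, fell less, to 56.1 ± 3.1 CPM in C7-143, against 70.6 ± 7.99 CPM in C0. LST8, a partner subunit, had a log2 fold change of -1.73. IML1, a subunit of the complex that restrains TORC1, and PKH2, a kinase that phosphorylates Sch9, fell too (-0.86 and -0.85). Of 8 genes of the PP2A-type phosphatases (median -0.28), 6 fell, beside 43.3% of all genes, among them the regulatory subunit genes CDC55 (-1.07) and RTS1 (-0.57) and the scaffold gene TPD3 (-0.64). PPH22 (0.42), a catalytic subunit, and TAP42 (0.69), the phosphatase-binding protein under TORC1, rose.

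Within the Ras and protein kinase A group (median -0.70) 11 of 14 genes fell and 3 rose, beside 43.3% and 42.7% of all genes. Its catalytic subunits split: TPK2 had 171 ± 15 CPM in C7-143, against 525 ± 28.4 CPM in C0, and TPK3 had 55.6 ± 0.97 CPM in C7-143, against 24.9 ± 2.52 CPM in C0 (SD, n = 3 each). The cAMP phosphodiesterases split as well, with PDE1 at -2.18 and PDE2 at 1.23 on the log2 scale, and RAS1 rose (0.42). Of 13 partners of Msn2 and Rim15 (median -0.38), 10 fell, 2 rose (BMH1 and BMH2, the 14-3-3 proteins, 1.45 and 0.20) and SNF1 was not called (-0.03), beside the same shares of all genes. YAK1, a growth-restraining kinase under protein kinase A, fell to 278 ± 27.8 CPM in C7-143, against 1607 ± 128 CPM in C0. IGO2, a substrate of Rim15, and WHI2, a factor of the stress response, had log2 fold changes of -1.04 and -0.85.

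Other transcription factors near the 9 are given beside them. Of 8 other stress factors (median -1.26) 6 fell, beside 43.3% of all genes, among them the zinc-finger gene RGM1 (-2.99), the repressor gene XBP1 (-1.73) and the heat shock factor HSF1 (-1.29), and COM2 (1.83) and SKN7 (0.55), a factor of the oxidative response, rose. Of 17 partners of the ribosomal regulators (median -0.28) 10 fell, 6 rose and MRS6 was not called, which is not far from the 43.3% and 42.7% of all genes that fell and rose. DOT6, a repressor of ribosome biogenesis genes that binds the PAC element, had 134 ± 8.09 CPM in C7-143, against 897 ± 90.2 CPM in C0, and UTP22, which shares a complex with Ifh1, had 65.4 ± 4.32 CPM, against 13 ± 1.37 CPM in C0. CKA2, a casein kinase subunit, rose (1.19). Of 8 partners of Rap1 (median -0.12, mean 0.12), 3 rose and 4 fell, near the shares of all genes. RIF1 (1.24), a telomere factor, and the glycolytic activators GCR1 (1.48) and TYE7 (1.64) rose. SIR2 (-1.52), SIR4 (-0.32), RIF2 (-0.92) and GCR2 (-0.70) fell, and SIR3 was not called (0.07).

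Genes on which the 9 are known to act are given by list. Of 32 targets of the stress response element all 32 fell in C7-143 over C0, against 43.3% of all genes, and their median log2 fold change was -3.08. They held 1.53% to 1.95% of the reads in C7-143, against 9.33% to 10.4% in C0. GND2, of the pentose phosphate pathway, had 33.7 ± 3.06 CPM in C7-143, against 1620 ± 143 CPM in C0 (SD, n = 3 each), and CTT1, the cytosolic catalase, had 90 ± 6.6 CPM, against 1195 ± 17.6 CPM in C0. TKL2, a transketolase, and ALD3, an aldehyde dehydrogenase, had log2 fold changes of -4.64 and -3.84. In C0 over BY47419, 8 of the 32 fell, 1 rose (TSL1) and 23 were not called, where 18% of all genes fell and 12.2% rose.

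The element itself lay before 31 of these 32 genes, 96.9%, beside 34.1% of all genes; since the list is of known targets of the element, its presence follows from how they were chosen. These examples are shown beside the sites of GIS1, SCH9 and RAP1 above, with the element in capitals, 5′ to 3′ on the gene's strand:
CTT1, chrVII:654246-654270: ctctttttcaAGGGGatcaccggta
GND2, chrVII:1004315-1004339: aattgaggcgCCCCTaatttttttg
CTT1 held 3 such elements, and GIS1, SCH9 and RAP1 1 each.

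Of the 10 post-diauxic and stationary phase genes, 9 fell in C7-143 over C0 and 1, SPG3, rose (0.59), beside 43.3% and 42.7% of all genes, with a median log2 fold change of -4.84. SSA3, an Hsp70 chaperone gene, had 52.6 ± 2.21 CPM in C7-143, against 2541 ± 232 CPM in C0 (SD, n = 3 each). SPG1 and SPG4, genes of survival in the stationary phase, and SPI1, a cell wall protein gene, had log2 fold changes of -6.78, -7.59 and -4.42. The post-diauxic shift element, searched as AGGGAT and, for the other strand, as ATCCCT, lay before 7 of these 10 genes, against 15.4% of all genes, and before 1 of the 9 regulators, SFP1. It also lay before 10 of the 32 stress element targets, 31.2%. Since the 10 genes were listed as known post-diauxic and stationary phase genes, their share is a description.

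Ribosomal protein genes went the other way. All 137 rose in C7-143 over C0, against 42.7% of all genes, at a median log2 fold change of 3.65, and they held 4.75% to 5.95% of the reads in C7-143, against 0.467% to 0.508% in C0. RPL23A had 431 ± 49.1 CPM in C7-143, against 25.2 ± 0.965 CPM in C0, and RPS10B had 302 ± 21.9 CPM, against 29.1 ± 1.93 CPM in C0 (SD, n = 3 each). RPL17B and RPS4A had log2 fold changes of 5.51 and 4.22. Beside this, among their regulators, SFP1 was lower, RAP1 was higher, and IFH1 and FHL1 were not called. Near-identical paralogs of these genes may share reads, which the sum over all 137 does not depend on unless such reads were left out.

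Of 41 ribosome biogenesis genes, 36 rose, 3 fell (NSA1, RRP15 and UTP20) and 2 were not called (MAK5 and RLP7) in C7-143 over C0, where 42.7% of all genes rose and 43.3% fell, with a median log2 fold change of 1.70. NOP56, a box C/D protein gene, had 465 ± 41.9 CPM in C7-143, against 48.9 ± 3.02 CPM in C0 (SD, n = 3 each), and GAR1, an H/ACA protein gene, had 142 ± 13.7 CPM, against 10.1 ± 1.4 CPM in C0. NOP58 and UTP21 had log2 fold changes of 3.70 and 3.82. The PAC element, searched as GATGAG and, for the other strand, as CTCATC, which Dot6 binds, lay before 38 of these 41 genes, 92.7%, against 28.3% of all genes. It also lay before 3 of the 9 regulators, RIM15, SCH9 and IFH1. A Rap1 site, of the form shown in capitals for RPS10B with any base allowed at its 2 inner variable positions, lay before 29 of the 137 ribosomal protein genes, 21.2%, against 2.23% of all genes and 0 of the 9 regulators. It lay before 12.5% of the stress element targets and 12.5% of the glycolytic targets given below. Rap1 sites of other forms were not searched, so these shares may miss sites. PAC and Rap1 sites are known from ribosome biogenesis and ribosomal protein genes, so their shares in those lists are descriptions. One site of each kind is shown, with the element in capitals, 5′ to 3′ on the gene's strand:
NOP56, chrXII:545960-545985: ttttttgagtGATGAGatgggaaatg
IFH1, chrXII:585902-585927: tttttttcatCTCATCactaaattga
RPS10B, chrXIII:732214-732243: acatcgcgcaTGTGTGGGTGtatatgccct

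The 16 glycolytic targets of Rap1 and Gcr1 all rose in C7-143 over C0, beside 42.7% of all genes, with a median log2 fold change of 2.49. ENO2, enolase, had 10706 ± 1651 CPM in C7-143, against 376 ± 15.1 CPM in C0 (SD, n = 3 each), and HXK2, hexokinase, had 1777 ± 90.9 CPM, against 332 ± 34.9 CPM in C0. TDH2 and FBA1 had log2 fold changes of 4.75 and 3.58. The activators listed with them, RAP1, GCR1 and TYE7, were higher in C7-143 than in C0, and GCR2 was lower.

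**Figure D5:**
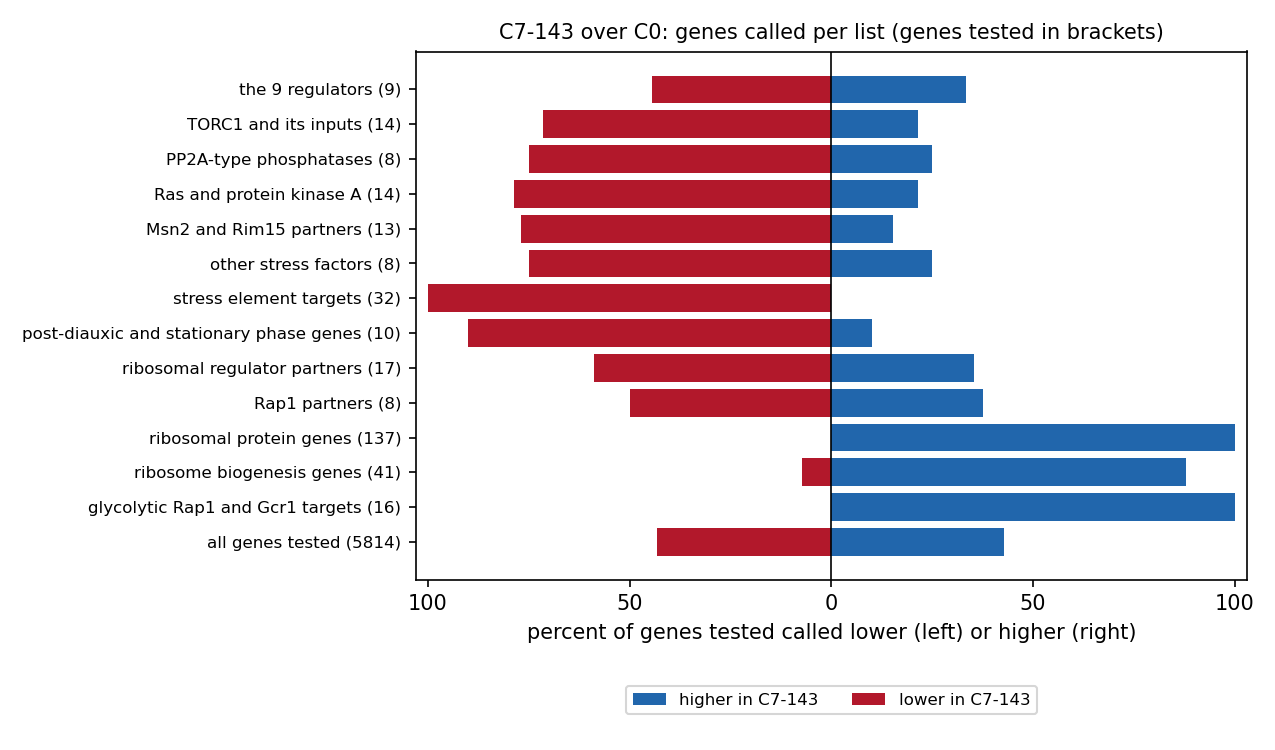
Percent of the tested genes of each list called higher (right, blue) or lower (left, red) in C7-143 over C0, with the 9 regulators at the top and all genes tested at the bottom; the number tested stands in brackets. All 32 stress element targets are lower and all 137 ribosomal protein genes higher, while the 9 regulators hold 3 higher and 4 lower.

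The genes whose pattern over the 15 libraries was most like that of a regulator were found among 5053 genes with a standard symbol, as the smallest root mean square difference of centred log2 CPM. For GIS1 these were YNG1 and CYC3, both at 0.09, where the median gene differed from GIS1 by 1.03. For MSN4 they were AIM39 (0.07) and LAG2 (0.08), and for MSN2 DSK2 (0.07) and RSC2 (0.10). RIM15 was closest to ABF1 (0.08) and UBP1 (0.09), and SCH9 to SLN1 and RPN14 (0.07 each). SFP1 was closest to SSD1 and to RPH1, the paralog of GIS1 (0.09 each), and RAP1 to GPI16 and SUB1 (0.10 each). IFH1 was closest to USO1 and MYO1 (0.09 each) and FHL1 to DNA2 (0.07) and DDC1 (0.08), beside a deviation of FHL1 from its own mean of 0.10. Among the 9 themselves, the closest pair was IFH1 and FHL1, at 0.14, but both varied little, with a root mean square deviation from their own mean of 0.15 for IFH1 and 0.10 for FHL1, and the farthest GIS1 and RIM15. MSN4 was nearer to SFP1 (0.24) than to its paralog MSN2 (0.61).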

How the data were processed

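Raw read counts and FPKM values, per gene and library, were deposited by the authors in 1 table. Per the submitters' processing notes HISAT2 was used. What counted the reads, with which strand setting and against which build, is not given in the sources used here, so reads of overlapping or near-identical genes may have been split or left out. The deposited counts were used. The deposited FPKM values served as a check: each followed from count, coding length and library total. Coordinates are R64, in which 5972 of 5980 genes have the same start and end; sequences were read from its reference genome. None of the 9 regulators overlaps another R64 gene.

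Groups are the strains the labels name. R 4.3.3 with edgeR 4.0.16 fitted all 15 libraries by strain (filterByExpr, minimum count 10 and minimum total 15; TMM; robust quasi-likelihood), with 6 contrasts, two-sided tests and Benjamini-Hochberg adjustment over 5814 genes. The SE is the size of the log2 fold change over the root of F, and 95% intervals use the model's t quantile. The test was tried on simulated counts for C0 over BY47419 alone, with far fewer changed genes than were called in the data. It therefore does not test the scaling assumption or the comparisons of evolved strains. Patterns were compared on log2 CPM with a prior count of 2. Alternatives were DESeq2 1.42.0, limma-voom (limma 3.58.1), RLE scaling, library totals, other filters, only the strains compared, an adjusted p below 0.01, a replicate block and leaving out each library.

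The named genes are all 9 regulators, the paralogs RPH1 and CRF1, up to 4 called genes of each list with the lowest adjusted p in C7-143 over C0, any list gene a count of 5 or fewer rests on, and the 2 genes most like each regulator. TOR2, HMG1, LEU2, HIS3 and GAL80 are named outside this rule. The regulators and lists were chosen with earlier results of these data known.

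Replicate numbers were checked for pairing by the correlation of deviations from strain means, where every same-numbered pair had to exceed 0.1. It was passed in C0 over BY47419 alone (0.116 to 0.321), and no label gives a shared batch or day.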

Additional observations from a re-analysis of the deposited data

How the results depend on the processing

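Of 810 values of the 9 regulators under 24 alternative settings, 731 kept their direction and their side of the threshold, 46 were no longer called, 7 became called and 26 changed sign, all 26 of them uncalled differences; for 26 of the 54 regulator differences no setting changed either. With the replicate block, 5 regulators were called in C0 over BY47419, as without it, and the block changed no other regulator call. The count of all genes called in C0 over BY47419 was 1122 with only these strains fitted, 813 at an adjusted p below 0.01 and 945 to 2223 when a library was left out, against 1761. Regulators called there were 1 with library totals alone, 3 at the stricter threshold and 3 to 5 with a library left out. In C5-63 over C3-06, 1504 of all genes were called at the stricter threshold, against 2372 at 0.05. In another comparison, C7-143 over C5-63, 5 regulators and 48.8% of all genes were called at 0.05. There, 2 regulators, RAP1 and SCH9, were called at the stricter threshold, and 2 to 5 regulators with a library left out. The share of all genes called in these settings of C7-143 over C5-63 is not given here.

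Signs turned with library totals alone for IFH1 in C0 over BY47419 (0.08), C3-06 over C0 (0.18) and C7-143 over C5-63 (-0.01), for FHL1 in C3-06 over C0 (0.08) and C7-143 over C0 (0.13), and for RIM15 in C5-63 over C3-06 (0.10; 0.02 with RLE scaling and with DESeq2). Leaving out 1 library turned the sign of uncalled values within these ranges: -0.20 to 0.04 for IFH1 and -0.04 to 0.03 for FHL1 in C0 over BY47419; -0.13 to 0.11 for IFH1 in C3-06 over C0; -0.04 to 0.20 for IFH1 and -0.04 to 0.05 for FHL1 in C5-63 over C0; -0.09 to 0.05 for FHL1 in C7-143 over C0. In C5-63 over C3-06 the ranges were -0.02 to 0.07 for MSN4, -0.05 to 0.04 for RIM15 and -0.01 to 0.05 for RAP1, and in C7-143 over C5-63 they were -0.09 to 0.03 for FHL1. The difference in share ranged from -2.38 to 0.421 percentage points for RPH1 in C7-143 over C5-63 and from -3.85 to 0.719 for CRF1 in C0 over BY47419. The causes were not tested. With 3 libraries a strain, the exact permutation test of shares cannot pass 0.05, and counting error is small for the regulators, of which each had at least 2326 reads in the 3 libraries of any strain.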
